A study of Mus musculus with 12 samples.

Results

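The genes described here were the collagen genes of the mouse genome, as they were expressed in germ cells and somatic cells of the fetal ovary. A gene was a member when the deposited table gave it as protein coding and its symbol was Col, a type number, the letter a and a chain number, a rule that used no measured value. This found 44 of the 22046 protein-coding genes in a table of 54532 genes, and the members fell by collagen type into 11 fibrillar, 6 basement membrane (type IV) and 27 other collagens. RNA was measured in bulk in 12 libraries from ovaries of embryos at embryonic day E15.5 that carried the transgene Tg(Pou5f1-EGFP)2Mnn, in which regulatory sequence of Pou5f1 (OCT4) drives a green fluorescent protein (GFP) in germ cells. Once a day from E12.5 to E15.5 the pregnant dams received an intraperitoneal injection, either of dexamethasone (dex), a synthetic glucocorticoid, in an amount of 10 µg for each g of the dam's weight, or of the same volume of saline. Cells sorted by flow cytometry gave 4 groups of 3 replicates, namely germ cells with GFP and somatic cells without it, each from dex dams and from saline dams. The somatic fraction was every cell that lacked GFP, and each library pooled ovaries from independently dosed litters, so that a replicate was a pool and not an animal.

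Collagens are secreted proteins of 3 chains wound into a helix, in which glycine recurs at each turn of the helical part because no larger side chain fits at its centre. Fibrillar collagens assemble into the banded fibrils that give connective tissue its tensile strength, type IV collagens form the sheet-like network of basement membranes, and the other types coat fibrils, form microfibrils, anchor basement membranes to the tissue below or span the cell membrane. In the fetal ovary, basement membranes surround the cords of germ cells and pregranulosa cells, and fibrillar collagens lie in the stroma between the cords.

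Fibrillar and type IV collagens differ in their coding sequence, while the other types vary widely. In the GENCODE annotation (release M21, build GRCm38), the longest uninterrupted run of triplets of codons that each begin with a glycine codon was 338 triplets in the median fibrillar gene (range 216 to 344), 43.5 triplets in the median type IV gene (39 to 66) and 45 triplets in the median gene of the other types (23 to 113). Fibrillar genes held 2 or 3 such runs of at least 10 triplets each, whereas type IV genes held 16 to 18 and the other types 2 to 18. Coding exons of exactly 54 bases, the unit from which fibrillar helices are built, numbered 21 to 33 in fibrillar genes, 1 to 3 in type IV genes and 0 to 28 in the other types. The exons below are shown because they show regular and interrupted helix sequence in genes on which the results turn. They are coding exons of the reference genome written 5′ to 3′ on the gene's strand from the first whole codon, with glycine codons in capitals. The first 5, from the fibrillar genes Col1a1 (chr11:94939697-94939741, plus strand, exon 7) and Col3a1 (chr1:45325360-45325413, plus, exon 6), the microfibril gene Col6a1 (chr10:76719623-76719676, minus, exon 9), the anchoring fibril gene Col7a1 (chr9:108978821-108978892, plus, exon 103) and the fibril-associated gene Col12a1 (chr9:79612916-79612969, minus, exon 57), keep a glycine codon at the start of each triplet throughout.
Col1a1: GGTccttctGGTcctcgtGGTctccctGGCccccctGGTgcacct
Col3a1: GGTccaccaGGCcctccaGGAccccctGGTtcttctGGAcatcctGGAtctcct
Col6a1: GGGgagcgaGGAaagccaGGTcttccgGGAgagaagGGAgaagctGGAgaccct
Col7a1: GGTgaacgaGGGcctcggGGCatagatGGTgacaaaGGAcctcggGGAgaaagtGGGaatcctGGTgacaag
Col12a1: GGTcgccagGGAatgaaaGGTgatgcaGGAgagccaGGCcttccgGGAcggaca

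The type IV exons from Col4a1 (chr8:11244486-11244569, minus, exon 9) and Col4a5 (chrX:141578672-141578752, plus, exon 9) show interruptions, where more than 2 other codons separate some neighbouring glycine codons. All exons were picked for being regular or interrupted, so they do not stand for whole genes. Col7a1 held 18 runs of at least 10 triplets, as did Col4a1. Of the 28 codons of the Col4a1 exon 8 were glycine codons, and of the 27 of the Col4a5 exon 7 were.
Col4a1: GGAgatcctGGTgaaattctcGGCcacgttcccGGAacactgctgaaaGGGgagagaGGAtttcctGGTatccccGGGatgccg
Col4a5: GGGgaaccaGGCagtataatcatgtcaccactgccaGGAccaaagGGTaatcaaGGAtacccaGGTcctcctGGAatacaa

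Libraries held 14658503 to 18245507 counts. Levels of 1 gene across libraries are given in CPM (counts scaled to a common library size, with library totals adjusted by the TMM method), and a level of 3 counts, here called the floor, was 0.169 to 0.201 CPM. Levels of different genes were compared only in FPKM (fragments per kilobase of gene, scaled to depth), which divide by gene length. The sort was checked against marker lists. Summed germ cell markers stood at 2460 to 2980 CPM in germ cell libraries. In somatic libraries they stood at 5.85 to 10.3 CPM after saline and 16.7 to 23.3 CPM after dex. The median stromal marker in saline germ cells stood at 0.695% of its saline somatic level, but most other lists stood higher. The median was 0.783% for surface epithelium and mesothelium, 2.03% for perivascular, 2.05% for endothelial and 2.83% for mesonephric markers. It was 4.93% for macrophage and 8.92% for pregranulosa markers, 0.375% for erythroid genes and 287% for glial and neural crest markers. Within somatic cells some markers moved with dex, where 4.81% of all genes tested were called higher and 3.36% lower. The summed level of 10 stromal markers was 6520 to 7180 CPM after saline and 7010 to 8660 after dex, ranges that overlap. Of the 10, 2 were called higher and 1 lower, and their median log2 fold change was 0.013. For 10 perivascular and smooth muscle markers the sum was 729 to 763 and 775 to 937 CPM, with 3 called higher, 1 lower and a median of 0.06. For 10 macrophage markers it was 209 to 277 and 60.4 to 148 CPM, with 5 called lower and a median of -0.865. Endothelial markers summed to 367 to 442 CPM after saline and 330 to 371 after dex, pregranulosa markers to 818 to 854 and 653 to 871 CPM, surface epithelium and mesothelium markers to 425 to 505 and 339 to 525 CPM, mesonephric epithelium markers to 186 to 215 and 172 to 229 CPM, glial and neural crest markers to 50.8 to 70.8 and 62.1 to 73.8 CPM, and erythroid genes to 7400 to 12500 and 3320 to 16500 CPM. In the remaining lists 1 endothelial marker was called higher and 3 lower, 1 pregranulosa marker lower and 1 germ cell marker higher. No marker of any list but the germ cell list was at 0 counts across a somatic group. The part of these shifts in the collagen results was not tested.

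Collagen levels in saline somatic cells ran from 0 for Col10a1 to 1090 FPKM for Col1a1, and fibrillar genes held the top of the range. Collagens took 2.97% to 3.26% of all counts in the saline somatic libraries and 0.0383% to 0.0519% in the saline germ cell libraries. Col1a1 and Col1a2, which encode the chains of type I collagen, the main collagen of connective tissue, had mean levels of 1090 ± 78.6 and 432 ± 29.6 FPKM (SD, n = 3), and Col3a1, the type III chain that forms fibrils together with type I, stood between them at 668 ± 45.2 FPKM. These 3 levels did not overlap. Among the other types the microfibril genes Col6a1 and Col6a2 led with 389 ± 27.3 and 249 ± 17.6 FPKM, and Col16a1, a fibril-associated collagen, followed at 71.0 ± 5.37 FPKM. Of the type IV genes, Col4a1 stood at 80.3 ± 4.14, Col4a2 at 63.3 ± 4.28 and Col4a5 at 42.1 ± 1.35 FPKM. In the order of levels Col4a1 stood next to Col16a1 and Col4a2 close to the type VI gene Col6a3 (67.5 ± 2.24 FPKM). The means of each of these pairs differed by less than the sum of their SDs.

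Ratios between chains of 1 protein varied little between the saline somatic libraries. Col1a1 exceeded Col1a2 by 2.50, 2.53 and 2.56 times in FPKM in the saline somatic libraries, and Col6a1 exceeded Col6a2 by 1.56 times in each of them. In saline germ cells the first ratio was 2.26, 2.31 and 2.52 and the second 1.33, 1.22 and 1.62. The ratio of Col4a1 to Col4a2, whose products join in the type IV network found in nearly all basement membranes, was 1.25, 1.31 and 1.25 in saline somatic cells but 0.656, 0.672 and 0.611 in saline germ cells. The ratios of the somatic libraries all lay above 1 and those of the germ cell libraries below it. Col4a1 and Col4a2 lie head to head on chromosome 8 and their annotated ends overlap by 22 bases, and whether counting used strand was not stated, so reads from the overlap could have been given to either gene or to none. The lengths deposited for the 2 genes were 7464 and 6619 bases. Col4a2 also shares exon sequence with the gene model Gm15419 on the opposite strand. The cause of the different ratio was not tested.

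**Figure D1:**
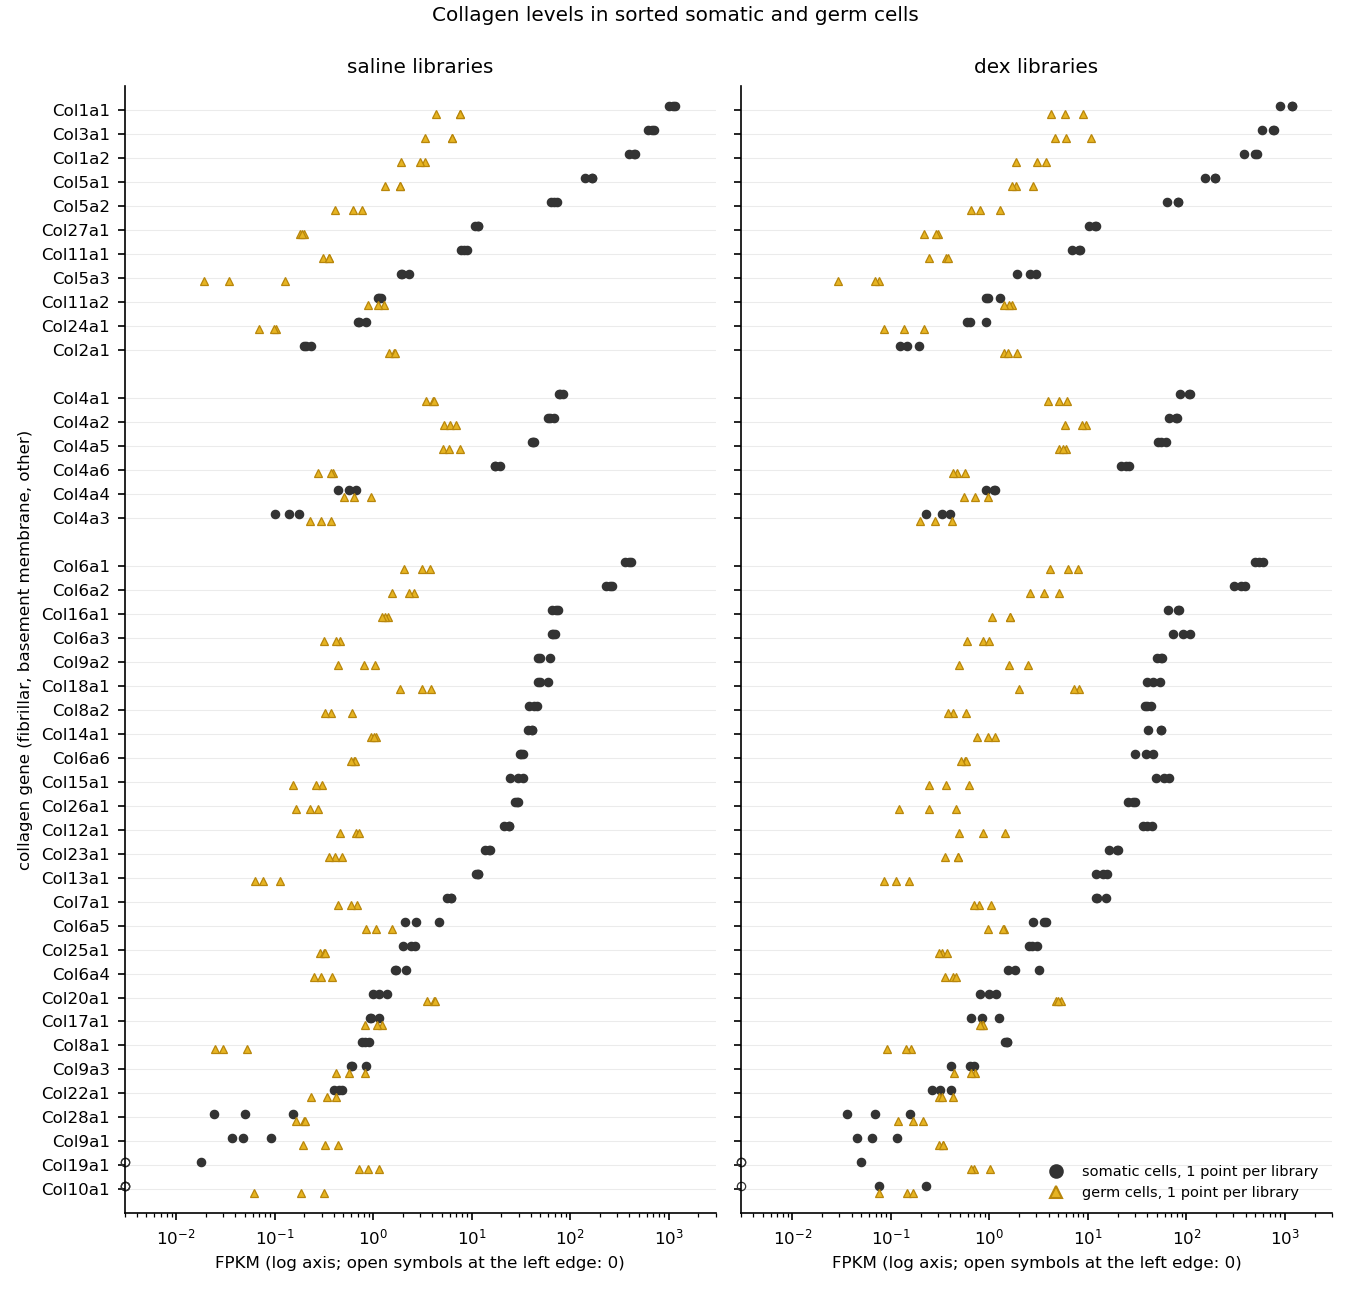
Deposited FPKM of the 44 collagen genes (log axis), with saline libraries on the left and dex libraries on the right, 1 point per library, circles for somatic and triangles for germ cells, and open symbols at the left edge for values of 0. Genes are ordered within each class by their mean in saline somatic cells, which runs from 1090 FPKM for Col1a1 to 0 for Col10a1, and most germ cell triangles lie far to the left of the circles of the same gene.

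Germ cells after saline held far less collagen RNA than somatic cells, with a few exceptions. Of 43 members that could be tested in the comparison of saline germ with saline somatic cells (edgeR quasi-likelihood test, called at a Benjamini-Hochberg adjusted p of at most 0.05 over all genes tested), 32 were called lower in germ cells and 6 higher, and 5 were not called. This comparison called 86.1% of all genes tested, 42.9% lower and 43.1% higher in germ cells, so that a call alone said little. The median log2 fold change was -4.66 over the members tested and 0.005 over all genes tested. Of the 32 members, 25 were over 16-fold lower in germ cells. The share of all genes lower by as much was not computed. Col1a1 stood at 28.6, 50.4 and 48.9 CPM in the saline germ cell libraries against 7530, 6830 and 7840 CPM in the somatic ones. That was 0.576% of the somatic level, close to the 0.695% of the median stromal marker. Col6a3 stood at 0.569%, Col1a2 at 0.614% and Col6a1 at 0.739% of their somatic levels. In bulk samples such as these, fewer cells of a type and less RNA per cell cannot be told apart. The part of somatic cells or free RNA carried over in the sort was not tested.

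Type IV genes kept a larger part of the somatic level than Col1a1 or Col6a1, but so did collagens of other classes. Germ cell levels were 4.66% of the somatic level for Col4a1, 9.16% for Col4a2 and 14.2% for Col4a5, but 1.86% for Col4a6. Outside type IV they were 5.41% for Col18a1, 9.23% for Col7a1, 11.4% for the fibrillar gene Col24a1 and 35.0% for Col6a5. The 5 members not called stood higher still. They were Col22a1 at 71.3%, Col9a3 at 84.6%, the fibrillar gene Col11a2 at 91.1%, Col17a1 at 101% and the type IV gene Col4a4 at 120%. The median pregranulosa marker stood at 8.92%. For Col4a5 the germ cell libraries stood at 34.4, 51.3 and 38.9 CPM and the somatic ones at 300, 283 and 293 CPM, with no overlap. Type IV genes made up 27.5% to 29.6% of collagen FPKM in the saline germ cell libraries and 5.19% to 5.65% in the somatic ones, and fibrillar genes 28.0% to 34.7% and 64.6% to 65.0%.

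The 6 members called higher in germ cells differed widely in level there, from a mean of 0.189 FPKM for Col28a1 to 4.17, 4.28 and 3.56 FPKM in the 3 saline libraries for Col20a1. By its mean Col20a1 was the fifth of all collagens in saline germ cells, after Col3a1 (5.30 FPKM) and close to Col4a1 (3.90 FPKM). Col2a1, the fibrillar collagen of cartilage, stood at 15.0, 13.3 and 14.9 CPM in saline germ cells and 2.20, 2.00 and 1.88 CPM in saline somatic cells. The groups did not overlap, and the fitted germ cell level was 7.15 times the somatic one (edgeR BH-adjusted p = 1.93e-09). Col20a1, a fibril-associated collagen with interrupted helices (FACIT), stood at 21.3, 21.9 and 17.9 CPM in germ cells against 7.30, 6.19 and 5.28 CPM in somatic cells (3.28-fold, edgeR BH-adjusted p = 1.03e-07). Col19a1, another FACIT member, stood at 6.01, 7.93 and 4.91 CPM in germ cells and rested there on 315 counts, against 2 counts in all 3 saline somatic libraries. The ratio of these counts was 150 with a 95% exact interval of 41.3 to 1250 that covers counting error only (edgeR BH-adjusted p of the comparison = 1.77e-08). Col19a1, Col9a1 and Col28a1 passed the low-count filter of this comparison only through the germ cell libraries, where they were high. Their calls and p-values are therefore not separate support for a higher germ cell level.

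The 3 remaining members each averaged under 1 FPKM in both fractions. Col9a1, a FACIT member of cartilage, was fitted 5.02-fold higher in germ cells with levels of 2.20, 0.991 and 1.60 CPM (edgeR BH-adjusted p = 0.000516). Col4a3 stood at 2.91, 3.67 and 2.23 CPM against 1.45, 1.03 and 1.82 CPM in somatic cells (2.05-fold, edgeR BH-adjusted p = 0.00898). Col28a1 stood at 0.969, 0.991 and 0.800 CPM against 0.252, 0.774 and 0.121 CPM (2.42-fold, edgeR BH-adjusted p = 0.0453), and its call was lost in 8 of 11 alternatives. Col10a1, the collagen of hypertrophic cartilage, was not tested in this comparison. It had 0 counts in each saline somatic library, a level at or under the floor, and 0.194 to 0.971 CPM in saline germ cells. Col20a1 shares exon sequence with the gene model BX649560.1 on the same strand. Col4a3 shares it with C430014B12Rik and Col10a1 with Nt5dc1, both on the opposite strand. The counts of these genes are uncertain to that extent.

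After dex, somatic cells held more RNA of type IV collagens and of several other types, whereas no fibrillar collagen was called. Of 40 members that passed the low-count filter, 13 were called higher and 0 lower (of the 17 at an unadjusted p under 0.05 each was higher, and DESeq2 called 14 higher and 0 lower), where 4.81% of the 16556 genes tested were called higher, 3.36% lower and 8.18% in either direction. An unadjusted p under 0.05 (edgeR) was found for 3453 of the 16556 genes tested. The median log2 fold change was 0.21 over the members tested and 0.00 over all genes tested. The 4 members that did not pass the filter were Col9a1, Col10a1, Col19a1 and Col28a1, each at most 0.789 CPM in every somatic library. By class, 0 of 11 fibrillar, 4 of 6 basement membrane and 9 of 23 tested members of the other types were called, with median log2 fold changes of -0.002, 0.41 and 0.25. Whether the classes differ was not tested. Intervals of single genes overlapped between classes, as for Col4a1 (0.14 to 0.50) and the fibrillar gene Col5a1 (-0.01 to 0.39). In 15 members, which were the 13 called, Col4a3 and Col13a1, all 3 dex libraries lay above all 3 saline libraries, and in 1, Col2a1, below them. Of the 16556 genes tested, 2242 lay above and 1968 below in this way, so that the groups did not overlap in 25.4% of all genes tested and in 16 of the 40 members tested.

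**Figure D2:**
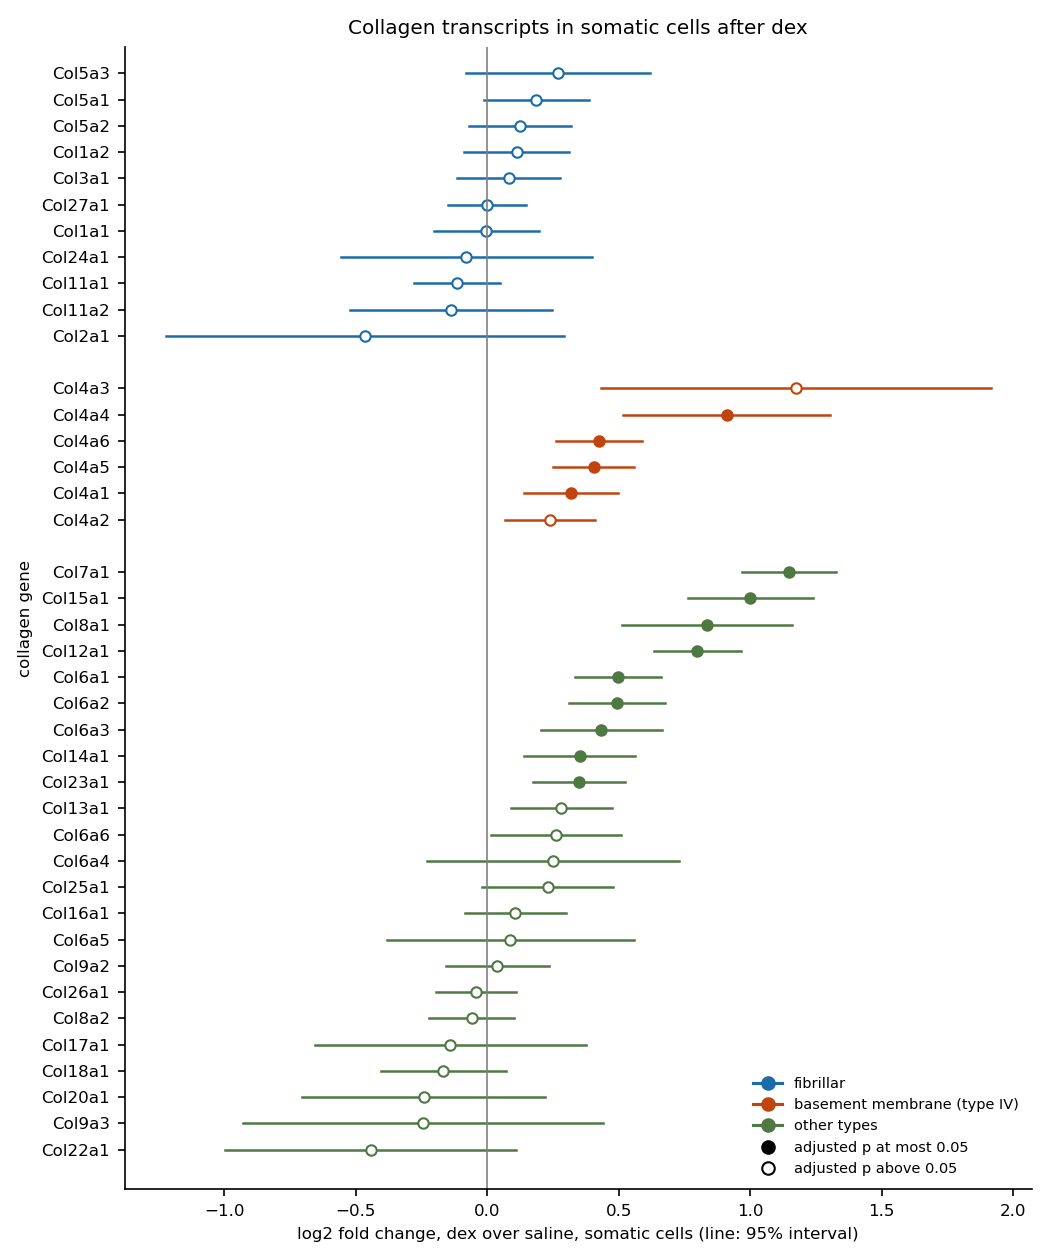
Log2 fold change of dex over saline in somatic cells for the 40 collagen genes tested, by class, with 95% intervals as lines and filled points for adjusted p at most 0.05. No fibrillar gene is filled and their points range from -0.47 to 0.27, while the 6 basement membrane genes range from 0.24 to 1.17 and 13 points in all are filled, each to the right of 0.

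All 6 type IV genes had higher fitted levels after dex. Each had an unadjusted p under 0.05, and 4 passed adjustment. Col4a5 stood at 300, 283 and 293 CPM in saline replicates 1 to 3 and at 428, 377 and 356 CPM in dex replicates 1 to 3. All dex libraries were above all saline libraries, and the fold was 1.32 (log2 fold change 0.40, 95% interval 0.25 to 0.56, edgeR BH-adjusted p = 0.003). Col4a6, whose chain joins that of Col4a5 in a network of smooth muscle and some epithelia, stood at 159, 141 and 142 CPM and at 216, 200 and 179 CPM. Its groups also did not overlap, and it rose by a similar amount (log2 fold change 0.42, interval 0.26 to 0.59, edgeR BH-adjusted p = 0.00339).

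Col4a4 and Col4a3, whose chains form a network together with that of Col4a5 and which are best known from the kidney, were expressed at far lower levels. Col4a4 stood at 7.36, 6.19 and 4.85 CPM after saline and at 12.1, 12.3 and 10.2 CPM after dex. It rose 1.88-fold (log2 fold change 0.91, interval 0.51 to 1.30, edgeR BH-adjusted p = 0.00721), with no overlap of the groups. Col4a3 stood at 1.45, 1.03 and 1.82 CPM and at 4.11, 2.31 and 3.39 CPM, again without overlap, but missed the threshold (log2 fold change 1.17, interval 0.43 to 1.92, edgeR BH-adjusted p = 0.0531).

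Col4a1 and Col4a2 were the most abundant type IV genes and had the smallest fold changes. Col4a1 stood at 593, 607 and 653 CPM after saline and at 841, 808 and 670 CPM after dex. The groups did not overlap, but dex replicate 3 was only just above the highest saline library, and the call (log2 fold change 0.32, interval 0.14 to 0.50, edgeR BH-adjusted p = 0.0302) was lost when any library but dex replicate 3 was left out. Col4a2 stood at 421, 410 and 465 CPM and at 545, 534 and 454 CPM. Its groups overlapped through dex replicate 3, and it was not called (log2 fold change 0.24, interval 0.07 to 0.41, edgeR BH-adjusted p = 0.0919). DESeq2 called all 6 type IV genes, as did edgeR without the low-count filter, and 3 were called in a fit over all 12 libraries.

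Fibrillar collagens gave no call, and for the abundant ones the intervals were narrow. Col1a1 stood at 7530, 6830 and 7840 CPM after saline and at 8030, 8010 and 6150 CPM after dex. Dex replicates 1 and 2 were above all saline libraries and dex replicate 3 below them, and the log2 fold change was -0.004 with a 95% interval of -0.20 to 0.20 (edgeR BH-adjusted p = 0.989). Col1a2 followed the same order of libraries, with 5690, 5110 and 5790 CPM and with 6390, 6580 and 5000 CPM (log2 fold change 0.11, interval -0.09 to 0.31, edgeR BH-adjusted p = 0.554). So did Col3a1, with 7170, 6290 and 6820 CPM and with 7610, 7890 and 6000 CPM (log2 fold change 0.08, interval -0.12 to 0.28, edgeR BH-adjusted p = 0.678). Col3a1 shares exon sequence with the gene model Gm47302 on the same strand. Col5a1 shares it with 2810430I11Rik and Gm13372 on the opposite strand, so the counts of both genes are uncertain to that extent.

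The result for the fibrillar class rested on dex replicate 3. With all libraries, edgeR called 0 of 11 fibrillar members and 0 had an unadjusted p under 0.05, and DESeq2, edgeR without the low-count filter and the fit over all 12 libraries also called 0. Without dex replicate 3, 4 were called higher, namely Col1a2 (log2 fold change 0.23, edgeR BH-adjusted p = 0.0132), Col3a1 (0.20, 0.0287), Col5a1 (0.29, 0.00913) and Col5a2 (0.23, 0.0301), the last 2 encoding the type V chains that form the core of type I fibrils. In that fit 20 members in all were called higher, where 6.06% of all genes tested were, and 1 was called lower, Col18a1 (log2 fold change -0.29, edgeR BH-adjusted p = 0.0484). Dex replicate 3 also had the lowest stromal marker sum of the dex libraries, at 7010 CPM against 8620 and 8660 CPM. Its perivascular (775 CPM), endothelial (330 CPM), glial (62.1 CPM) and erythroid (3320 CPM) sums were the lowest of the dex libraries too. Its pregranulosa sum was the highest, at 871 against 653 and 688 CPM. Surface epithelium (525 against 339 and 408 CPM) and mesonephric markers (229 against 181 and 172 CPM) were also highest in dex replicate 3. Its macrophage sum (141 CPM) lay between the others. The cause of its lower fibrillar levels was not tested. Even without it the fibrillar median log2 fold change (0.12) was below those of the type IV (0.48) and other members (0.37).

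Among the less abundant fibrillar genes the values were scattered on both sides of 0. Col5a3 had a log2 fold change of 0.27 (interval -0.08 to 0.62), Col11a1, a minor fibrillar chain of cartilage, one of -0.11 (-0.28 to 0.05), and Col27a1, a long fibrillar collagen, one of -0.002 (-0.15 to 0.15). Col2a1 stood at 2.20, 2.00 and 1.88 CPM after saline and at 1.39, 1.18 and 1.84 CPM after dex. Its groups did not overlap, but its interval was the widest of the class, from -1.22 to 0.29 (edgeR BH-adjusted p = 0.51).

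Of the other collagens, type VII gave the largest called fold. Col7a1 encodes the chain of the anchoring fibrils that fasten epithelial basement membranes to the connective tissue below. It stood at 64.9, 59.5 and 65.2 CPM after saline and at 161, 131 and 130 CPM after dex. Each dex library was far above each saline library, and the level rose 2.22-fold (log2 fold change 1.15, interval 0.97 to 1.33, edgeR BH-adjusted p = 1.27e-06).

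Col15a1 and Col18a1 encode the multiplexins, collagens with many interruptions that sit in the basement membrane zone, and they differed. Col15a1 stood at 215, 162 and 195 CPM after saline and at 388, 433 and 326 CPM after dex. It rose 2.00-fold without overlap (log2 fold change 1.00, interval 0.76 to 1.24, edgeR BH-adjusted p = 7.17e-05). Col18a1, the source of the fragment endostatin, stood at 343, 362 and 429 CPM and at 284, 333 and 395 CPM. These groups overlapped and it was not called (log2 fold change -0.17, interval -0.41 to 0.07, edgeR BH-adjusted p = 0.436). The ratio of Col15a1 to Col18a1 in FPKM was 0.693, 0.496 and 0.503 in saline somatic libraries and 1.51, 1.44 and 0.912 in dex libraries, with every dex value above every saline value. Col15a1 shares exon sequence with the gene model Gm12426 on the opposite strand and Col7a1 with Mir711 on the same strand, so their counts are uncertain to that extent.

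Collagens that coat fibrils were called in part. Col12a1, a FACIT member of tendon, ligament and other dense tissue, stood at 374, 335 and 377 CPM after saline and at 699, 617 and 579 CPM after dex. The groups were well apart, and it rose 1.74-fold (log2 fold change 0.80, interval 0.63 to 0.96, edgeR BH-adjusted p = 1.99e-05). Col14a1, its closest relative in domain structure, stood at 296, 269 and 298 CPM and at 403, 400 and 301 CPM. Its groups did not overlap, but dex replicate 3 was just above the highest saline library, and the call (log2 fold change 0.35, interval 0.14 to 0.56, edgeR BH-adjusted p = 0.0445) was lost in 6 of 11 alternatives. Col16a1 stood at 505, 453 and 523 CPM and at 565, 576 and 458 CPM. These groups overlapped and it was not called (log2 fold change 0.11, interval -0.08 to 0.30, edgeR BH-adjusted p = 0.555). In all, 2 of the 7 tested members of this family were called.

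The beaded-filament collagens of type VI, which form microfibrils around cells, were called for the 3 chains of the common heterotrimer. Col6a1 stood at 1860, 1620 and 1780 CPM after saline and at 2480, 2690 and 2270 CPM after dex. No dex library overlapped a saline library, and it rose 1.41-fold (log2 fold change 0.50, interval 0.33 to 0.66, edgeR BH-adjusted p = 0.000954). Col6a2, its obligate partner chain, stood at 2260, 1970 and 2170 CPM and at 3060, 3320 and 2650 CPM. It rose by the same fold without overlap (log2 fold change 0.49, interval 0.31 to 0.67, edgeR BH-adjusted p = 0.00224). Col6a3, the remaining chain of the common heterotrimer, stood at 859, 807 and 832 CPM and at 1140, 1330 and 914 CPM. Its groups did not overlap, though dex replicate 3 was close to the saline range (log2 fold change 0.43, interval 0.20 to 0.66, edgeR BH-adjusted p = 0.0228), and the call was lost in 7 of 11 alternatives, DESeq2 among them. The alternative chains Col6a4, Col6a5 and Col6a6, which can take the place of Col6a3, were not called by edgeR, with log2 fold changes of 0.25 (interval -0.23 to 0.73), 0.09 (-0.38 to 0.56) and 0.26 (0.01 to 0.51). These intervals overlap that of Col6a3, and whether the chains differ was not tested. Col6a6 was called higher without the low-count filter (edgeR BH-adjusted p = 0.00737) and without dex replicate 3 (edgeR BH-adjusted p = 0.00165).

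A network collagen and a membrane collagen completed the called genes. Col8a1, a short-chain collagen of vessel walls, stood at 6.73, 6.19 and 7.28 CPM after saline and at 12.3, 11.6 and 12.4 CPM after dex. It rose 1.79-fold with no overlap (log2 fold change 0.84, interval 0.51 to 1.16, edgeR BH-adjusted p = 0.00328), whereas its more abundant partner Col8a2 had a log2 fold change of -0.06 (-0.22 to 0.10). Col23a1, a transmembrane collagen, stood at 91.5, 80.9 and 88.2 CPM and at 116, 119 and 97.5 CPM. The groups did not overlap and it rose 1.27-fold (log2 fold change 0.35, interval 0.17 to 0.52, edgeR BH-adjusted p = 0.0176), with the call lost in 4 of 11 alternatives. Another transmembrane collagen, Col13a1, was higher in each dex library (55.4, 53.3 and 55.0 CPM against 68.0, 74.0 and 57.6 CPM) but missed the threshold (log2 fold change 0.28, interval 0.09 to 0.47, edgeR BH-adjusted p = 0.0759).

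**Figure D3:**
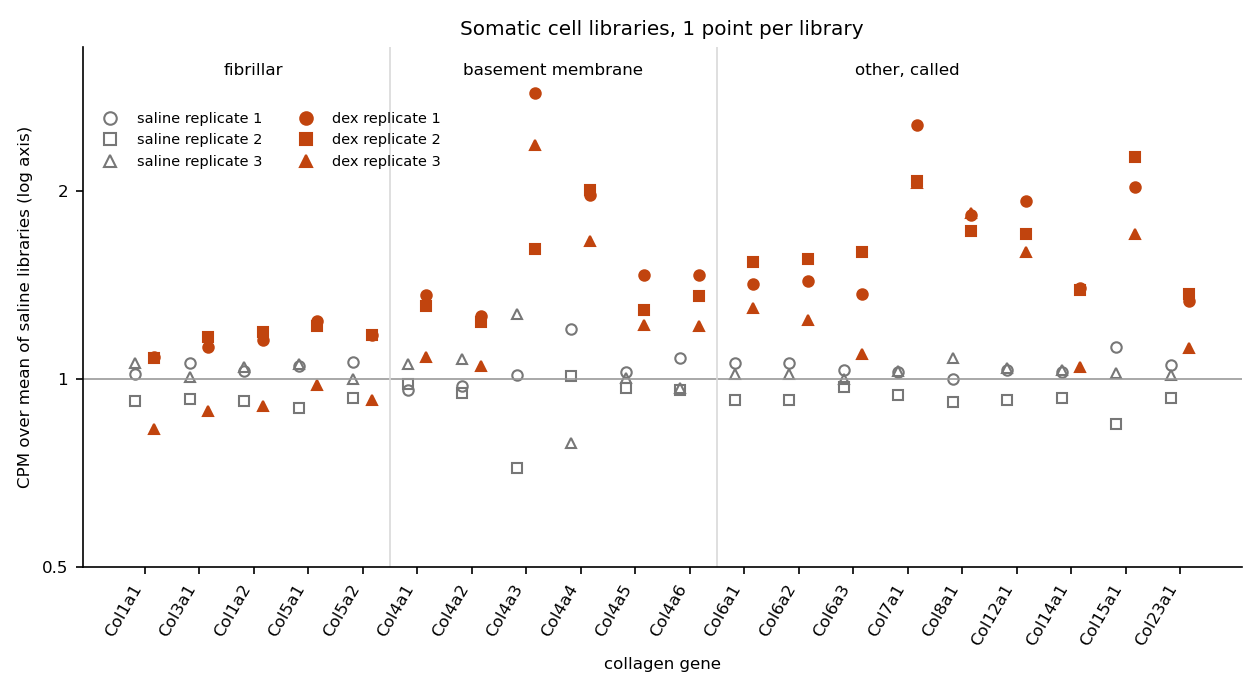
Level of the 5 most abundant fibrillar genes, the 6 basement membrane genes and the 9 called genes of other types in each somatic library, as CPM over the mean of the 3 saline libraries (log axis), with open grey symbols for saline, filled red symbols for dex and 1 shape per replicate number. For the fibrillar genes the dex replicate 3 triangle lies below 1 (for Col1a1 6150 CPM against a saline mean of 7400 CPM), while for the 9 called genes on the right all dex symbols lie above all saline symbols.

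Calls differed in how far they depended on the settings. Col4a4, Col4a5, Col4a6, Col7a1, Col8a1, Col12a1 and Col15a1 were called in all 11 alternatives, which were another scaling, DESeq2, no low-count filter, a fit over all 12 libraries, the replicate number as a block and each library left out in turn. Col6a1 and Col6a2 lost the call only in the fit over all 12 libraries, where their adjusted p-values were 0.105 and 0.119 (edgeR, BH). Col4a1 was lost in 6, Col6a3 in 7, Col14a1 in 6 and Col23a1 in 4. In no alternative did any of the 13 change direction.

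Relative amounts within a library also differed between treatments, and these do not depend on how libraries are scaled to each other. Fibrillar genes made up 65.0%, 64.6% and 65.0% of collagen FPKM in the saline somatic libraries and 60.5%, 59.7% and 57.7% in the dex libraries. The other types made up 29.8%, 29.7% and 29.6% after saline and 33.3%, 34.7% and 36.1% after dex, so that the groups were apart for both classes. Type IV genes made up 5.19% to 5.65% after saline and 5.66% to 6.18% after dex. The ratio of Col6a1 to Col1a1 in FPKM was 0.369, 0.356 and 0.341 in saline libraries and 0.462, 0.502 and 0.553 in dex libraries, highest in dex replicate 3. The ratio of Col1a1 to Col1a2 was 2.53 ± 0.0286 and 2.34 ± 0.0378 (SD, n = 3), and that of Col6a1 to Col6a2 was 1.56 ± 0.00186 and 1.57 ± 0.0539. Summed by class, the CPM of dex over saline was 1.05 for fibrillar, 1.26 for type IV and 1.34 for other collagens, and together collagens took 3.03% to 3.74% of counts after dex.

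Several members are neighbours in the genome. The 6 type IV genes form 3 head-to-head pairs that share a promoter region, and the members of a pair had like fold changes in somatic cells. The log2 fold changes were 0.32 and 0.24 for Col4a1 and Col4a2 on chromosome 8, 0.91 and 1.17 for Col4a4 and Col4a3, whose starts lie 71 bases apart on chromosome 1, and 0.42 and 0.40 for Col4a6 and Col4a5, 1308 bases apart on chromosome X. On chromosome 10, Col6a2 and Col6a1 lie 85161 bases apart on the same strand and had log2 fold changes of 0.49 and 0.50, while Col18a1, 326009 bases from Col6a1, had one of -0.17. The tail-to-tail fibrillar genes Col3a1 and Col5a2, 24614 bases apart on chromosome 1, had values of 0.08 and 0.13. Promoter windows from 250 bases before to 50 after the start were matched in RefSeq (GRCm38.p6) for 35 of the 44 genes, in 38 windows. Col1a1, Col12a1 and Col14a1 were among the genes without a window. The palindromic glucocorticoid response element, searched as the 13 letters GNACANNNTGTNC, was in 0 of the 38 windows and in 0.475% of 32851 windows of all genes. At so low a share, 0 of 38 windows was the likely outcome for any set of genes and says nothing particular of collagens. The shorter site AGAACA, on either strand, was in 2 (5.26%), those of Col9a1 and Col20a1, and in 19.0% of all windows. The windows say nothing of sites farther away.

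The machinery that modifies, folds and crosslinks collagen chains was also called in part, and always higher after dex. Of 63 genes in 7 lists 59 were tested and 16 were called higher and 0 lower in somatic cells (22 had an unadjusted p under 0.05, and DESeq2 called 17 higher and 0 lower), where 4.81% of all genes tested were called higher and 3.36% lower. Over all genes tested, 3453 of 16556 had an unadjusted p under 0.05 (edgeR). In the fit over all 12 libraries 11 of the list genes were called higher. By list, 3 of 10 genes of prolyl hydroxylation, 3 of 5 of lysyl hydroxylation and glycosylation, 3 of 9 of folding and export (0 in the fit over all 12 libraries), 1 of 6 of propeptide cleavage and 2 of 6 of crosslinking were called. Of the 15 laminins, nidogens and proteoglycans of basement membranes 4 were called. Of the 8 tested collagen receptors and uptake receptors 0 were, with 2 at an unadjusted p under 0.05 and 0 called by DESeq2, and their median log2 fold change was -0.17.

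Among genes of chain modification Colgalt2 changed most. Colgalt2, which attaches galactose to hydroxylysine of collagen chains, stood at 4.97, 4.32 and 4.07 CPM after saline and at 22.9, 27.4 and 19.6 CPM after dex. Every dex library was several times above every saline library (log2 fold change 2.38 with SE 0.17, edgeR BH-adjusted p = 9.45e-07). P4ha2, a catalytic subunit of the prolyl hydroxylase that stabilises the helix, stood at 40.4, 39.6 and 41.0 CPM and at 80.2, 89.7 and 88.1 CPM (log2 fold change 1.09 with SE 0.07, edgeR BH-adjusted p = 6.48e-07). P3h2, a prolyl hydroxylase active on type IV collagen, stood at 25.4, 20.9 and 20.8 CPM and at 55.6, 60.4 and 41.8 CPM (log2 fold change 1.23 with SE 0.13, edgeR BH-adjusted p = 6.49e-05). Neither overlapped between groups. Plod2, a lysyl hydroxylase that prepares crosslinking sites, had a smaller log2 fold change of 0.38 with SE 0.10 (edgeR BH-adjusted p = 0.0248), and its call was lost in 5 of 11 alternatives.

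Among later steps Lox had the largest called change. It encodes lysyl oxidase, which starts the crosslinking of fibrils. It stood at 191, 179 and 173 CPM after saline and at 626, 610 and 441 CPM after dex, without overlap (log2 fold change 1.62 with SE 0.11, edgeR BH-adjusted p = 7.81e-07). Pcolce, an enhancer of procollagen cleavage, rose from 249, 237 and 263 CPM to 348, 360 and 308 CPM (log2 fold change 0.44 with SE 0.07, edgeR BH-adjusted p = 0.00201). Creb3l1, a membrane-bound transcription factor that induces collagen genes, had a log2 fold change of 0.41 with SE 0.08 (edgeR BH-adjusted p = 0.00703), lost in 2 of 11 alternatives.

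Of the basement membrane partners, the laminin chain gene Lama2 stood at 101, 86.7 and 92.8 CPM after saline and at 200, 204 and 163 CPM after dex (log2 fold change 1.01 with SE 0.09, edgeR BH-adjusted p = 9.34e-06). Nid1, the nidogen that bridges laminin to type IV collagen, stood at 585, 542 and 517 CPM and at 807, 799 and 681 CPM (log2 fold change 0.47 with SE 0.08, edgeR BH-adjusted p = 0.00173). Lamb3, a laminin chain of epithelial basement membranes, was weakly expressed, with 4.78, 6.32 and 7.10 CPM after saline and 9.73 to 12.6 CPM after dex (log2 fold change 0.93 with SE 0.19, edgeR BH-adjusted p = 0.00762). In none of the 3 did the groups overlap. The remaining 6 called genes, Plod1, P4ha1, Loxl2, Fkbp14, Sec24d and Lamb1, had log2 fold changes between 0.26 and 0.34, and of these only Lamb1 was called in all 11 alternatives.

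**Figure D4:**
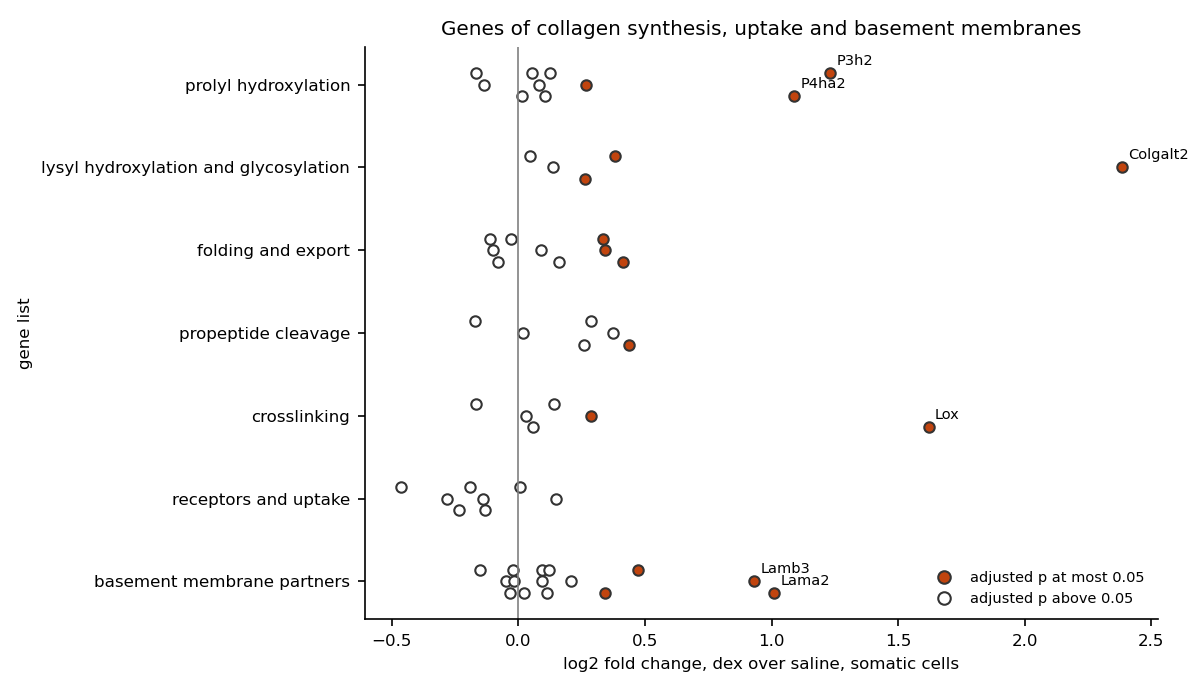
Log2 fold change of dex over saline in somatic cells for the 59 tested genes of 7 lists on collagen synthesis, receptors and basement membranes, 1 point per gene, filled where the adjusted p was at most 0.05. The 16 filled points all lie to the right of 0, led by Colgalt2 at 2.38 and Lox at 1.62, and no receptor gene is filled.

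In germ cells no collagen was called after dex. Of 41 members tested, edgeR called 0, where 0.208% of all 16857 genes tested were called. An unadjusted p under 0.05 was found for 11 members, Col8a1 among them, and for 1963 of the 16857 genes. Fold changes were positive in 32 of 41 members, with a median log2 fold change of 0.31 against 0.01 over all genes tested. The other tools called few, with 1 by DESeq2 (Col6a3), 2 with the replicate number as a block (Col6a1 and Col6a2) and 3 in the fit over all 12 libraries (Col6a1, Col6a3 and Col8a1). Without the low-count filter 7 were called higher, where 0.748% of all genes tested were. Without dex replicate 1, 3 were called higher, namely Col4a2, Col6a1 and Col18a1 (log2 fold changes 0.59, 1.25 and 1.37).

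The largest germ cell values were those of type VI and VIII chains. Col6a1 stood at 8.98, 13.8 and 16.1 CPM in saline germ cells and at 18.2, 34.6 and 27.3 CPM in dex germ cells. All dex libraries were above all saline libraries, but the spread was wide (log2 fold change 1.05, interval 0.53 to 1.56, edgeR BH-adjusted p = 0.135). Col6a3 stood at 3.75, 5.54 and 4.91 CPM and at 10.5, 11.8 and 7.05 CPM, also without overlap (log2 fold change 1.05, interval 0.55 to 1.55, edgeR BH-adjusted p = 0.122). Col8a1 was near the floor, with 0.194, 0.233 and 0.400 CPM and with 0.736, 1.23 and 1.11 CPM (log2 fold change 1.86, interval 0.75 to 2.98, edgeR BH-adjusted p = 0.218). It passed the low-count filter of this comparison only through the dex libraries, where it was high. Its fold change, interval and p-value are therefore not separate support for a higher level after dex. In 9 of the 41 members tested, Col8a1 among them, the dex germ cell libraries were all above the saline ones, and in 1, Col6a6, all below. Of the 16857 genes tested, 1337 were above and 1589 below in this way, 17.4% in all. The median of Col6a1, Col6a2 and Col6a3 in germ cell libraries was 0.512% to 0.884% of the mean somatic level after saline and 0.734% to 1.39% after dex, and the median stromal marker was 0.536% to 0.835% and 0.473% to 1.07%. Summed pregranulosa markers ranged from 37.9 to 77.0 CPM in saline germ cells and from 30.0 to 104 CPM in dex germ cells. The part of somatic carry-over in the germ cell values was not tested.

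**Figure D5:**
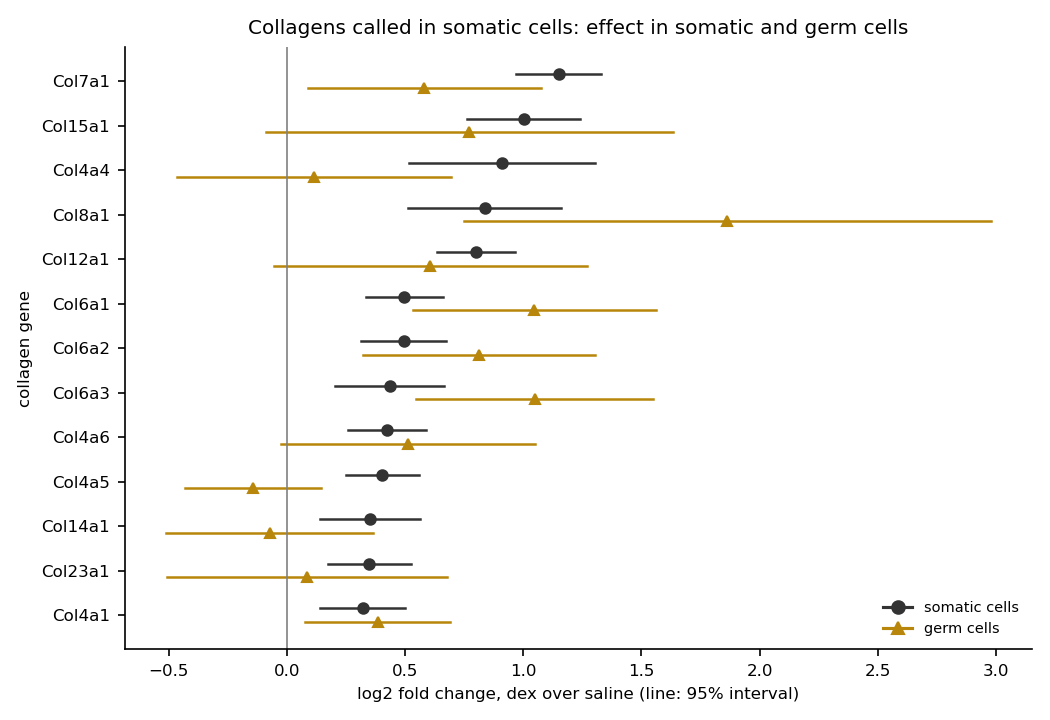
Log2 fold change of dex over saline with 95% intervals for the 13 collagens called in somatic cells, with circles for somatic and triangles for germ cells. Every somatic interval lies above 0, the germ cell intervals are wider, and 7 of the 13 include 0, those of Col4a4, Col4a5, Col4a6, Col12a1, Col14a1, Col15a1 and Col23a1, with points between -0.14 and 0.77. In germ cells Col8a1 passed the low-count filter only through the dex libraries.

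The dex effect was not shown to differ between the cell types for any collagen. A test of the difference, the germ cell effect minus the somatic effect over all 12 libraries, called 0 of 43 members, where 1.62% of all genes tested were called. An unadjusted p under 0.05 (edgeR) was found for 14 of the 43 members and for 2991 of the 19390 genes tested. DESeq2 called 1, Col4a5, and edgeR without the low-count filter called 5 higher and 3 lower. Col4a5 had the smallest adjusted p (difference -0.56 on the log2 scale, interval -0.89 to -0.23, edgeR BH-adjusted p = 0.0962). Its germ cell levels were 34.4, 51.3 and 38.9 CPM after saline and 34.9, 40.0 and 37.4 CPM after dex, so that these overlapped while its somatic levels did not, and leaving out germ cell saline replicate 1 brought the adjusted p to 0.0294.

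Col18a1 had the largest positive difference, 1.14 (interval 0.20 to 2.07, edgeR BH-adjusted p = 0.226). It stood at 13.0, 26.8 and 21.5 CPM in saline germ cells and at 14.3, 56.2 and 50.3 CPM in dex germ cells, where dex replicate 1 was far below the other two. Without that library Col18a1 and Col9a2 were called in the test of the difference (1.55 and 1.34 on the log2 scale). Summed pregranulosa markers were also lowest there, with 37.9, 59.3 and 77.0 CPM in saline germ cells and 30.0, 104 and 80.6 CPM in dex germ cells. Other lists differed, with macrophage markers highest in dex replicate 1 (52.1, 47.1 and 37.7 CPM after dex). The part of somatic carry-over in these 2 calls was not tested. Of the 60 genes of the synthesis, receptor and basement membrane lists tested for a difference, P4ha2 (-0.79, edgeR BH-adjusted p = 0.0294) and Lama2 (-1.10, edgeR BH-adjusted p = 0.000669) were called, both with the smaller effect in germ cells. Lama2 was called in all 16 alternatives (adjusted p at most 0.00401), but P4ha2 lost the call in 10, with the replicate block (edgeR BH-adjusted p = 0.0653) and with any of 9 libraries left out (up to 0.0866, edgeR, BH). P4ha2 stood at 11.6, 10.5 and 8.23 CPM in saline germ cells and at 14.7, 11.9 and 10.8 CPM after dex, and Lama2 at 30.5, 25.8 and 30.4 CPM and at 30.5, 26.1 and 25.2 CPM, overlapping in both cases. Within germ cells 0 of the 57 tested genes of these lists were called by edgeR or by DESeq2. An unadjusted p under 0.05 (edgeR) was found for 8 of the 57 and for 1963 of all 16857 genes tested.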

How the data were processed

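RNA from sorted ovarian cells was measured in 12 libraries, 3 per group. The submitters' processing notes name HISAT2 2.0.5, featureCounts 1.5.0-p3, DESeq2 1.20.0 and mm10. The authors deposited raw counts per gene and FPKM values that they computed from those counts. Their tables of DESeq2 comparisons were not used. Whether featureCounts used strand is not given in the sources used here.

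Counts were tested with edgeR 4.0.16 in R 4.3.3 (quasi-likelihood, TMM scaling, filterByExpr, Benjamini-Hochberg over all genes tested, called at 0.05). Dex was compared with saline within each cell type and germ with somatic cells after saline from the libraries concerned, and the difference of the dex effects over all 12. DESeq2 1.42.0 and the settings in the closing section were alternatives. CPM are counts over TMM-scaled library totals, with 3 counts as the floor. Scripts were tested on simulated counts. Replicates were labelled biological. Intervals and floors for single counts cover counting error only.

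The members, classes and lists were chosen with earlier results of these data known. Genes were named when called in a dex or difference test, when among the 3 highest of a class in saline somatic FPKM, when called higher in germ cells, and for the other lists as the 10 largest called changes in somatic cells. Any other gene was named after its values were seen.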

Additional observations from a re-analysis of the deposited data

How the results depend on the processing

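The count of collagens called higher in somatic cells after dex (13) was 8 in a fit over all 12 libraries, and 9 to 20 when 1 library was left out, the 20 without dex replicate 3. The count called lower (0) became 0 to 1 (Col18a1) with a library left out. In germ cells, 0 called higher became 1 with DESeq2, 3 in the fit over all 12 libraries, 7 without the low-count filter, 2 with the replicate block and 0 to 3 with a library left out. For the difference of the dex effects, 0 higher became 5 without the filter and 0 to 2 with a library left out, and 0 lower became 1 with DESeq2, 3 without the filter and 0 to 1 with a library left out. The cause was not tested. With the replicate block 14 collagens were called higher in somatic cells. Same-numbered somatic dex and saline libraries correlated at -0.00971 to 0.0479 and germ cell ones at 0.00789 to 0.132, so the numbers were not taken as pairs, although each germ cell library correlated best with the somatic library of its own number (3 of 3 in each treatment). Leaving 1 library out assumes that the remaining spread is shared.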
